A study of Mus musculus with 4 samples.

Results

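Patrolling monocytes were examined among CD45+ liver cells. They were chosen by measured values, namely by raw unique molecular identifiers (UMIs, single counted transcripts) in each cell. A cell was taken if it had at least 1 UMI of Csf1r and at least 2 of Ace, Treml4, Eno3 and Cd300e together. It also had no UMI of Negr1, Sox5, Itgad or Fcrl5, fewer than 10 of the 3 C1q genes and none of Cd3d, Cd3e or Cd3g. Of 36286 cells with 600 to 6000 genes detected and at most 5% mitochondrial UMIs, 2569 (7.08%) passed this gate.

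The study compared CD45+ cells sorted from the livers of female C57BL/6 mice in 4 single-cell libraries, made with the 10x Genomics 5′ kit. The young WT library came from untreated mice of about 8 weeks. The WT, miR-146a-/- and miR-146a-/- Ccl5-/- (DKO) libraries came from mice of 36 weeks, which had received 25 mg/kg diethylnitrosamine (DEN, a liver carcinogen) on day 14 and, from weaning on day 21, a choline-deficient diet with 60% fat (CDHFD). This treatment leads to hepatocellular carcinoma. Both null alleles are present in every cell of the mouse, and no Ccl5-/- library without the miR-146a deletion, and no untreated knockout, was measured.

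The number of mice behind a library is not stated, and each group is 1 library, so no replicate check was possible and no test was made. In the comparison of WT with young WT, age and DEN-CDHFD cannot be told apart. Intervals are 95% intervals and cover counting error only. Values are given in the order young WT, WT, miR-146a-/- and DKO throughout. In this order the libraries held 90756272, 103165826, 88706063 and 103147246 UMIs in 10985, 9120, 8393 and 10623 cells, of which 10283, 8329, 7824 and 9850 were kept at a median of 6782, 8210, 7910 and 7558 UMIs. Pairs of libraries shared 109 to 150 cell barcodes among all cells, and among gated cells 1 barcode in each of 3 pairs and none in the others.

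Patrolling, or nonclassical, monocytes derive from Ly6C-high classical monocytes through the nuclear receptor Nr4a1, depend on Csf1r for survival, and crawl along the endothelium of small vessels with the integrin LFA-1 (Itgal and Itgb2) and the receptor Cx3cr1. They take up debris and particles from the vessel wall, and in the liver they meet blood in the sinusoids. miR-146a is induced by NF-kB and dampens signalling from Toll-like and interleukin-1 receptors by repressing the adaptor Traf6 and the kinase Irak1. Ccl5 is a chemokine that draws T cells and other leukocytes into tissue.

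The deleted microRNA and its best known targets in this pathway are shown because the knockout comparison turns on them. Capitals mark the seed, bases 2 to 8, in the mature miR-146a-5p (RefSeq, GRCm38.p6, chr11:43374435-43374456, minus strand) and the 7 letters complementary to it, AGTTCTC, in 3′ untranslated regions (UTRs; GENCODE M21, GRCm38).
mmu-miR-146a-5p: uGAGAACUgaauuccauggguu
Irak1 site at chrX:74015390-74015415, minus strand: agactcagaggtcaaAGTTCTCatgc
Irak1 site at chrX:74015374-74015399, minus strand: gttctcatgcttggaAGTTCTCatag
Irak2 site at chr6:113694251-113694276, plus strand: gccggtgtctccgcaAGTTCTCaagt
Traf6 site at chr2:101697944-101697969, plus strand: accgctctggtgttgAGTTCTCattt
Traf6 site at chr2:101698008-101698033, plus strand: tccctggaaggcttaAGTTCTCaagt
Only the transcript strand was searched. The longest annotated 3′ UTR held 4 such matches in Traf6, 2 in Irak1, 2 in Irak2 and 1 each in Numb, Notch1 and Smad4, and no match in Relb or Cxcr4. Of 20997 genes with a 3′ UTR, 2346 (11.2%) held at least 1 match.

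The targeted gene was examined first. Over all kept cells, Ccl5 stood at 6174, 12544, 12496 and 65.4 CPM (the UMIs of a gene summed over a set of cells, per 1000000 UMIs of the set), and the DKO library alone was low. In the gate Ccl5 stood at 394, 219.8, 169 and 20.2 CPM. A single cell held 36.9% of the 1829 Ccl5 UMIs of gated miR-146a-/- cells, while in the DKO library 335 UMIs were spread over 200 cells. The table of counted features does not list miR-146a, and the counts therefore do not show whether it was lost.

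The genes that chose the cells are described without a reading of their differences, apart from the C1q sum, given below as a sign of macrophage transcripts. Csf1r was detected in 716, 1820, 2161 and 3470 kept cells, and 338, 799, 1516 and 2655 of these had 2 or more UMIs of the 4 markers. The limit on Negr1, Sox5, Itgad and Fcrl5 left 304, 697, 1303 and 1794, the limit on C1q 285, 549, 1232 and 1669 and the limit on Cd3 154, 273, 838 and 1304 cells. In the gate Csf1r stood at 388, 635, 801 and 806 CPM, Ace at 226, 263, 347 and 349 CPM, Treml4 at 215, 208, 274 and 265 CPM, Eno3 at 176, 219.5, 314 and 288 CPM and Cd300e at 66.6, 38.1, 140.1 and 135 CPM. Just inside the threshold, 23, 47, 64 and 97 cells had exactly 2 marker UMIs. Just outside it, 32, 69, 85 and 150 cells met every other condition with 1.

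Free RNA can put a cell into the gate. B cells (5 or more UMIs of Cd79a and Cd79b, no Cd3) should lack these markers, and 0.178%, 0.456%, 1.49% and 1.81% of them passed the whole gate. The share of B cells with 2 or more marker UMIs was 0.268%, 1.22%, 3.61% and 5.57%, at a median of 5707, 6990.5, 7207 and 6951 UMIs per B cell beside 14274, 12491, 10994.5 and 10855 per gated cell. In each library the share of B cells inside the gate was below the share of all kept cells inside it.

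The name was checked on genes that the gate did not use. Ear2, an eosinophil-associated ribonuclease gene given as a marker of these cells, stood at 241, 296, 306 and 329 CPM in the gate, beside 20.1, 66.4, 38.9 and 28.2 CPM in classical monocytes (Csf1r, 2 or more UMIs of Ly6c2, 1 or more of Ccr2, and the same exclusions). Spn (CD43) stood at 101, 104, 248 and 209 CPM beside 45.9, 50.1, 50.2 and 53.0 CPM. Adgre4 stood at 244, 309, 453 and 436 CPM beside 54.5, 119, 70.6 and 112 CPM. Each of the 3 was higher in the patrolling gate in every library. Ly6c2 stood at 309, 415, 342 and 287 CPM in the patrolling gate and 1907, 1340.4, 1793 and 1082 CPM in the classical one. It helped to choose the classical cells, so this direction was fixed and is no check of the name. All 22 genes of a nonclassical identity list, none of them used by the gate, were above the floor for counting in all 3 comparisons. A gene passes this floor if 1 of the libraries compared reaches it, and the list was not set against other gates here. This count is therefore no check of the name.

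**Figure D1:**
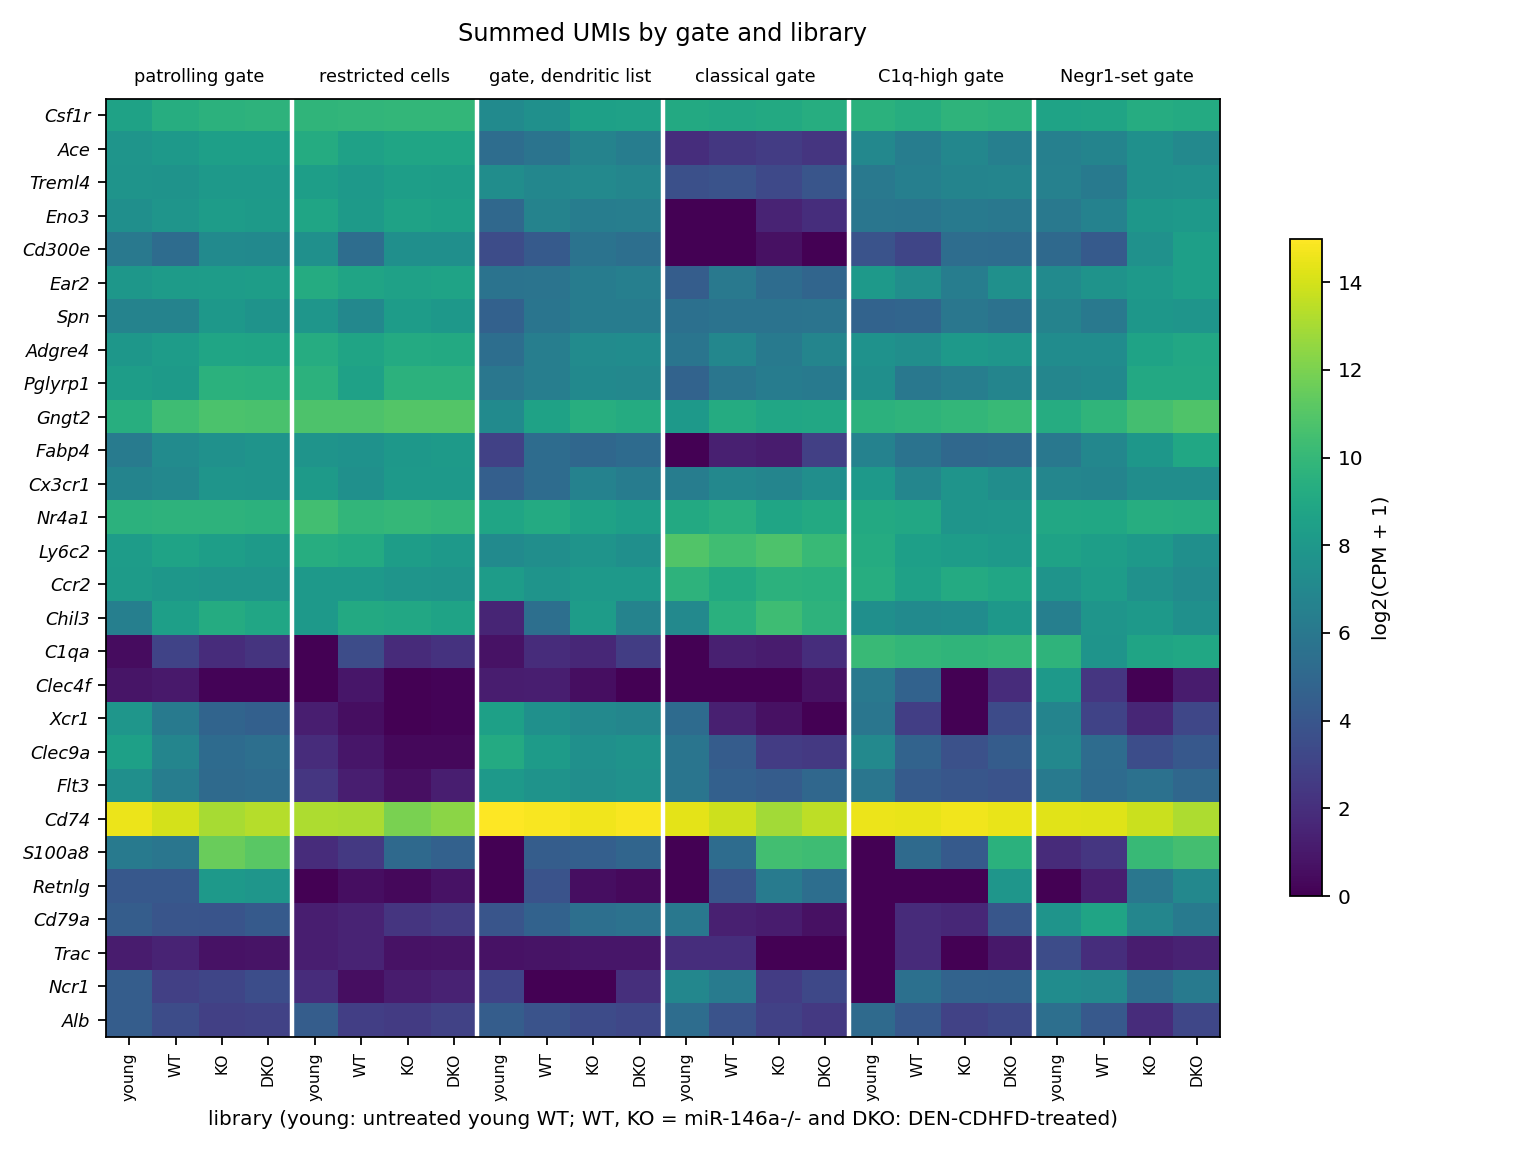
Level of marker genes, as log2(CPM + 1), in 6 gates (columns grouped by gate, 1 column per library) for 28 genes (1 per line). Ace, Eno3 and Cd300e chose the patrolling cells, which took precedence over classical monocytes, and their low level in the latter follows from this. Xcr1, Clec9a and Flt3 helped to choose the gated cells with dendritic transcripts, and C1qa the C1q-high gate, so their high levels there follow from that choice.

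C1q-high macrophages (10 or more C1q UMIs) and cells with a UMI of Negr1, Sox5, Itgad or Fcrl5 numbered 20, 106, 59 and 121 and 30, 49, 132 and 642. Ear2 stood at 258, 168, 81.5 and 184 CPM and Spn at 26.2, 28.8, 59.5 and 49.4 CPM in the C1q-high cells, and at 145, 205, 274 and 353 CPM and 104, 66.1, 244 and 222 CPM in the Negr1-set cells. Fabp4, a fatty acid carrier, stood at 74.9, 146, 194 and 212 CPM in the patrolling gate and 63.6, 121, 243 and 493 CPM in the Negr1-set cells. The gate therefore drew a border through cells that also carried patrolling monocyte transcripts.

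The gate also held transcripts of other cell types. The conventional dendritic list (Xcr1, Clec9a, Flt3, Zbtb46, Cd209a, Clec10a and Ccr7) reached at least 2 UMIs in 69, 69, 99 and 162 gated cells, or 44.8%, 25.3%, 11.8% and 12.4%. Its sum in the gate was 947, 444, 158 and 193 CPM, with Clec9a on top in the first 3 libraries and Cd209a in the DKO library, and no member at 0. The share of such cells depended on the marker sum, in a way that differed between libraries. With exactly 2 marker UMIs it was 65.2%, 34.0%, 43.8% and 41.2%. With 3 or 4 it was 75.9%, 35%, 28.0% and 30.1%, and with 5 to 9 it was 54.3%, 36.1%, 10.7% and 11.2%. With 10 or more it was 12.5%, 9.52%, 5.34% and 5.32%. In the young WT and WT libraries most of the fall thus came at 10 or more, while in both knockout libraries the share fell at each step.

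The neutrophil list (8 genes) reached 10 UMIs in 2, 6, 57 and 86 gated cells. Its sum was 149.8, 169.6, 9027 and 6581 CPM, led by S100a8 in the young WT library and by S100a9 in the others. The granule genes Camp and Ltf were at 0 in the WT gate, and Camp, Ltf and Ngp in the young WT one. The erythroid list summed to 3.31, 515, 4.07 and 2.59 CPM, led by Hbb-bs in the treated libraries. In the WT gate, 1 cell held 99.8% of the 925 Hbb-bs UMIs. The T-cell list, with no member at 0 and led by Lck, Cd8a, Lck and Cd2, summed to 50.1, 34.9, 18.6 and 26.5 CPM, the B-cell list to 212, 159, 109 and 186 CPM, led by Ighm, and the NK-cell list to 144, 19.96, 32.7 and 94.4 CPM, led by Gzma except in the WT library. The part of these transcripts in the results was not tested.

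The remaining lists, except the classical monocyte one, summed to between 0.414 and 122 CPM in the gate. The Kupffer cell list, led by Timd4, summed to 9.52, 13.1, 14.0 and 9.64 CPM, and Clec4f stood at 0.827, 1.05, 0.0925 and 0.121 CPM. The plasmacytoid dendritic list, led by Siglech and Ly6d, summed to 122, 94.3, 12.2 and 38.1 CPM, and the hepatocyte list, led by Alb or Fabp1, to 53.0, 44.1, 19.7 and 17.96 CPM. The endothelial list, led by Clec4g or Kdr, summed to 6.21, 11.3, 2.59 and 6.69 CPM, and the platelet list, of which 6, 4, 3 and 1 members were at 0, to 0.414, 0.788, 0.555 and 0.904 CPM. The classical monocyte list, led by Lyz2, which patrolling cells also express, summed to 6210.1, 10997, 14179.6 and 14529.9 CPM.

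Because these shares differed between libraries, most results are also given for restricted cells, chosen after seeing the data: gated cells with fewer than 2 UMIs of the dendritic list and fewer than 10 of each other list (classical monocytes not among them). They numbered 77, 191, 672 and 1032 of the 154, 273, 838 and 1304 gated cells. Their dendritic list summed to 13.6, 9.53, 8.76 and 8.69 CPM and their neutrophil list to 4.09, 7.72, 43.0 and 33.3 CPM. Cells with Ly6c2 and Ccr2 UMIs of the classical gate made up 24.7%, 39.3%, 19.6% and 18.9% of restricted cells, highest in the WT library. Leaving these out gave 58, 116, 540 and 837 core cells. No doublet caller was run, and doublets were limited by the upper limit on genes alone. The median UMI count of gated cells with dendritic transcripts was 22028, 20100, 21761 and 20181.5, beside 7703, 11157, 8631 and 8575 in restricted cells.

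**Figure D2:**
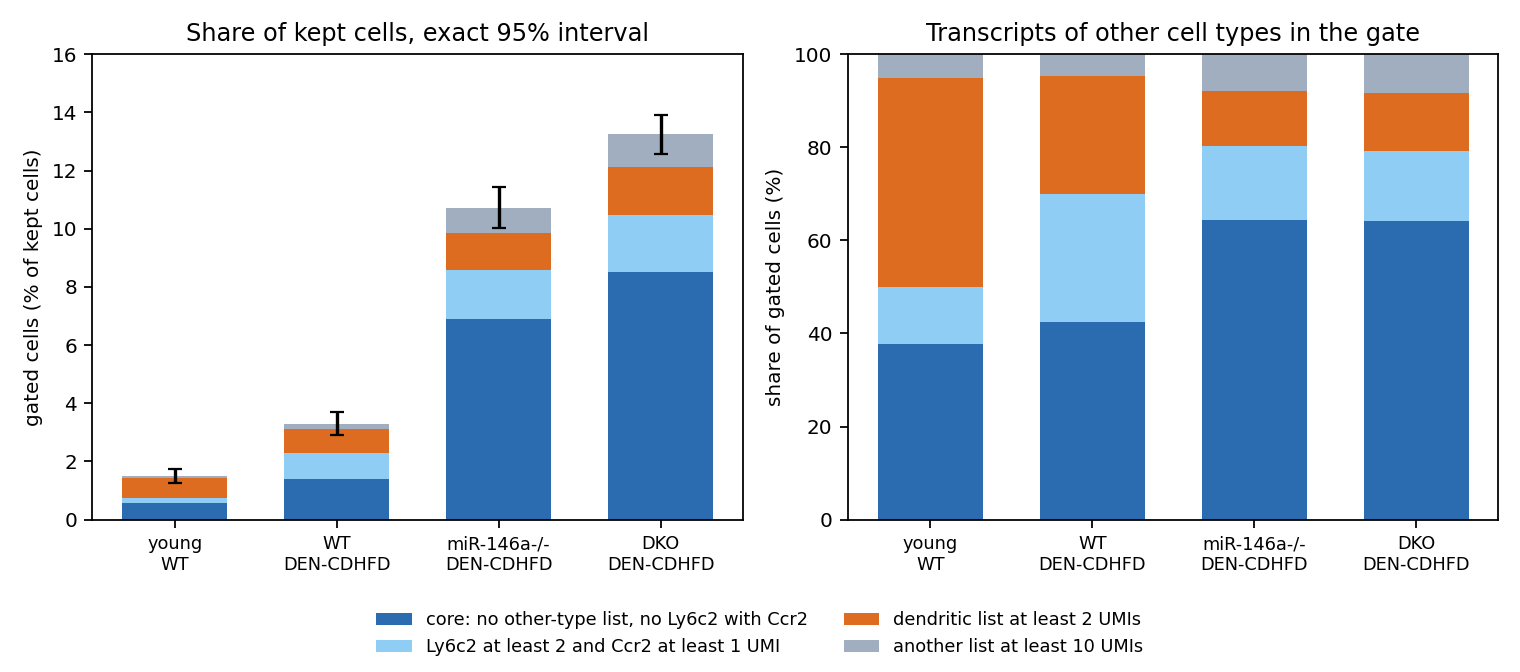
Gated cells as a share of kept cells (left, bars with the exact 95% interval of the whole) and the make-up of the gate (right), by library. The gate held 1.50% of young WT and 13.2% of DKO cells, and core cells were the larger part of it in the miR-146a-/- and DKO libraries only.

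Patrolling monocytes made up 1.50% (1.27 to 1.75), 3.28% (2.91 to 3.68), 10.7% (10.0 to 11.4) and 13.2% (12.6 to 13.9) of kept cells, with exact (Clopper-Pearson) intervals. The share was lowest in the young WT and highest in the DKO library. No interval overlapped another, which concerns counting error within these libraries and not differences between mice. The WT library exceeded the young WT one by 1.78 percentage points (1.34 to 2.24). The miR-146a-/- library exceeded the WT one by 7.43 percentage points (6.65 to 8.22). The DKO library exceeded the miR-146a-/- one by 2.53 percentage points (1.57 to 3.48). All 3 are Newcombe intervals.

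Restricted cells made up 0.749%, 2.29%, 8.59% and 10.5% of kept cells and core cells 0.564%, 1.39%, 6.90% and 8.50%, in the same order of libraries. Depth moved the level: after each cell was thinned to 2000 UMIs, 0.666%, 1.43%, 6.42% and 8.26% of the remaining cells passed the gate. The denominator moved the order. Among kept cells with a Csf1r UMI and no Cd3 UMI, the gate held 46.2%, 38.7%, 63.6% and 53.4%. On this base the difference of WT from young WT was -7.52 points and that of DKO from miR-146a-/- was -10.2 points, both reversed, while that of miR-146a-/- from WT was 24.9 points. Without the limit on Cd3 the shares of kept cells were 2.77%, 6.59%, 15.7% and 16.9%, and the DKO library then exceeded the miR-146a-/- one by 1.20 points. Without the limit on Negr1, Sox5, Itgad and Fcrl5, the DKO library exceeded the miR-146a-/- one by 5.57 points.

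Classical monocytes numbered 24, 52, 91 and 95 in their gate. There were 6.42 (4.16 to 10.3), 5.25 (3.89 to 7.21), 9.21 (7.41 to 11.6) and 13.7 (11.1 to 17.1) patrolling cells for each classical one. This ratio was highest in the DKO library. The classical gate is narrow: of 1179, 1185, 1050 and 1139 kept cells with its Ly6c2 and Ccr2 UMIs, 35, 98, 179 and 262 fell into the patrolling gate, which took precedence. With 1 UMI of Ly6c2 as the threshold, the ratios were 4.81, 3.59, 7.69 and 11.7. Restricted cells over the classical gate gave 3.21, 3.67, 7.38 and 10.9, with young WT then below WT. With the limits of restricted cells on both gates, 11, 32, 43 and 53 classical cells remained and the ratios were 7, 5.97, 15.6 and 19.5, with young WT above WT. The DKO library was highest each time. Its interval overlapped the miR-146a-/- one with the gates as designed, but not with 1 UMI of Ly6c2. They also overlapped for restricted cells (5.93 to 9.30 in miR-146a-/- and 8.80 to 13.5 in DKO). With the same limits on both gates they were 11.5 to 21.8 and 14.8 to 26.2, overlapping again.

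Restricted cells ranged between cells with the Ly6c2 and Ccr2 UMIs of the classical gate and core cells, which did not meet both limits. Both are genes of classical monocytes, and 10.3%, 36.2%, 14.1% and 14.0% of core cells still had a Ly6c2 UMI. Cells that met both limits numbered 19, 75, 132 and 195, at a median of 13361, 13392, 19758 and 19505 UMIs beside 7233.5, 9914.5, 7013 and 6707 in core cells. The part of this depth in the split was not tested. Ear2 stood at 711, 501, 470.0 and 535 CPM in core cells and 374, 363, 222 and 193 CPM in the others. The Fc receptor gene Fcgr4 stood at 171, 121, 212 and 287 CPM and 56.6, 65.5, 68.8 and 85.2 CPM. Both were higher in core cells of every library, as were Spn, Pglyrp1 and Adgre4. F13a1, a classical monocyte gene that did not enter the split, stood at 12.8, 88.2, 25.6 and 40.3 CPM and 219, 178, 296 and 269 CPM. Lyz2, the lysozyme gene, stood at 7486, 7576, 6312 and 8253 CPM and 14069, 13786, 17237 and 17402 CPM. Fn1, the fibronectin gene, stood at 21.3, 42.3, 73.1 and 93.3 CPM and 253, 315, 677 and 596 CPM. All 3 were lower in core cells of every library.

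Genes that differed between libraries were unequal across this range as well. Isg15 stood at 49.1, 200.2, 31.2 and 31.1 CPM in core cells and 328, 432, 131 and 82.9 CPM in cells with Ly6c2 and Ccr2 UMIs. In both, the WT library was highest and the knockout libraries were lowest. Spp1 stood at 0, 22.1, 0.645 and 40.0 CPM and 0, 244, 31.6 and 123 CPM, so the larger part of its WT UMIs lay outside core cells. Cd63 stood at 19.2, 125, 11.6 and 5.87 CPM and 0, 44.9, 3.01 and 24.8 CPM, with the larger WT level in core cells. Cd36 stood at 226, 218, 87.7 and 111 CPM and 60.4, 84.2, 29.7 and 17.5 CPM, higher in core cells of each library. H2-Aa stood at 3125, 2945, 873 and 1260.0 CPM and 1834, 2589, 1212 and 1802 CPM. Within either set, both libraries with WT alleles stood above the miR-146a-/- and DKO ones for Cd36, and for H2-Aa both stood above the DKO library too, by little in young WT cells with Ly6c2 and Ccr2 UMIs.

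Genes within these cells were compared as summed UMIs per library, taking genes that reached 50 CPM and 20 UMIs in at least 1 of the libraries compared (counted genes). A gene that reached this floor in 1 library alone is higher in that library by this choice. The log2 ratio uses a prior of 0.5 UMI, and a gene is called past 2-fold where it is at least 1 or at most -1. The comparisons share libraries, WT the first with the second and miR-146a-/- the second with the third, so they are not independent. Each is read by itself.

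The first comparison, of DEN-CDHFD-treated WT with young WT cells, asks what age and tumour-inducing treatment go with. In the gate, 130 of 3478 counted genes (3.74%) were past 2-fold higher and 87 (2.5%) past 2-fold lower. In restricted cells, 89 of 3497 counted genes (2.55%) were past 2-fold higher and 55 (1.57%) past 2-fold lower. The lower genes of both sets were different ones: 2 of the 55 in restricted cells were among the 87 of the gate, and 52 of the 89 higher genes were among the 130. Treated WT cells held more transcripts of lipid-associated macrophage genes and inflammatory chemokines, and, among restricted cells, fewer of Pglyrp1, S1pr5, Cd300ld and Cd300ld3.

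All 14 lipid-associated macrophage genes, which mark macrophages of fatty and fibrotic tissue, were counted in restricted cells and 6 were past 2-fold higher, with a median log2 ratio of 0.73 beside -0.04 over all counted genes. In the gate it was 7 of 13, median 1.16. Spp1 (osteopontin) stood at 0, 129.8, 11.9 and 68.4 CPM in restricted cells. It was at least 31.7-fold higher in WT than in young WT, where it was at 0 (against a floor of 3 UMIs). A single cell held 57.3% of the WT UMIs. Gpnmb, a lysosomal glycoprotein gene, stood at 0, 67.2, 10.9 and 13.2 CPM and was at least 16.4-fold higher in WT. Its 148 UMIs lay in 24 cells. The tetraspanin gene Cd63 stood at 12.3, 86.2, 8.48 and 12.4 CPM (log2 ratio 2.74, interval 1.86 to 3.96). Lipoprotein lipase, Lpl, stood at 46.4, 143, 41.2 and 49.6 CPM (log2 ratio 1.61, interval 1.11 to 2.18). The cathepsin gene Ctsd stood at 177, 459.8, 267 and 292 CPM (log2 ratio 1.37, interval 1.11 to 1.65). Of these genes, Spp1, Gpnmb, Cd63 and Lpl reached the floor through the WT library alone here, so their direction was fixed by this choice. Over all 14 members, counted or not, the list summed to 5502 CPM in young WT and 7289 CPM in WT restricted cells. The 3 C1q genes of macrophages, as far as the gate let them in, summed to 21.8, 49.0, 11.1 and 23.4 CPM in restricted and 32.0, 64.4, 11.6 and 23.5 CPM in core cells, highest in the WT library. Their part in the list's difference was not tested.

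Of 24 chemokine and cytokine genes, 15 were counted in restricted cells and 6 were past 2-fold higher (median 0.88). In the gate it was 7 of 14 (median 0.95). Spp1, given above, is on this list as well. The neutrophil attractant Cxcl2 stood at 5.45, 288, 55.7 and 97.5 CPM (log2 ratio 5.55, interval 4.36 to 7.60), with 4 UMIs behind the young WT value. The related macrophage inflammatory chemokines followed: Ccl4 stood at 76.3, 429, 44.7 and 39.6 CPM (log2 ratio 2.48, interval 2.10 to 2.90) and Ccl3 at 83.2, 194, 51.2 and 30.7 CPM (log2 ratio 1.21, interval 0.83 to 1.63). Of 23 NF-kB subunits and targets, all counted, 4 were past 2-fold higher in restricted cells (median 0.36) and 7 in the gate (median 0.78). Of the 4, Cxcl2, Ccl3 and Ccl4 are on the chemokine list as well. The superoxide dismutase Sod2, the other one, stood at 153, 485, 329.6 and 325 CPM (log2 ratio 1.66, interval 1.39 to 1.96).

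Interferon-stimulated genes leaned the same way, with 4 of 20 counted past 2-fold higher in restricted cells (median 0.67). Rtp4 stood at 68.2, 161, 42.7 and 46.2 CPM (log2 ratio 1.23, interval 0.81 to 1.70). Isg15, a ubiquitin-like modifier, stood at 150.0, 313, 67.4 and 48.9 CPM (log2 ratio 1.05, interval 0.77 to 1.36). In both, the WT library had the highest level of the 4. Neither the miR-146a-/- nor the DKO library reached the young WT level of Isg15.

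The nonclassical identity list depended on the cells taken. In the gate its 22 genes had a median log2 ratio of 0.32, none past 2-fold. In restricted cells the median was -0.44, with 1 gene past 2-fold lower, and in core cells -0.46. Pglyrp1, a peptidoglycan-binding protein gene, stood at 324, 288, 755 and 723 CPM in the gate and 796, 380.4, 795 and 786 CPM in restricted cells (log2 ratio -1.07, interval -1.22 to -0.91 there). Spn stood at 237, 129, 312 and 255 CPM in restricted cells (log2 ratio -0.88, interval -1.16 to -0.60). The dendritic list moved with this change of direction, at 947 CPM in the young WT gate and 444 CPM in the WT gate. Its part in the result was not tested.

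Single genes past 2-fold lower in WT than in young WT restricted cells are given next, S1pr5, Cd300ld3 and Hes1 from the 10 lowest ratios and Cd300ld from the list of its family. The sphingosine 1-phosphate receptor S1pr5, which serves exit from the marrow, stood at 150.0, 51.7, 97.7 and 98.3 CPM (log2 ratio -1.54, interval -1.93 to -1.14). Of the immunoglobulin-like receptors of the CD300 family (5 of 8 counted, with Cd300e, which the gate used), Cd300ld stood at 311, 128, 289 and 269.9 CPM (log2 ratio -1.28, interval -1.53 to -1.02). The related Cd300ld3 stood at 116, 14.1, 56.9 and 50.5 CPM (log2 ratio -3.03, interval -3.68 to -2.43). The Notch target Hes1 stood at 95.4, 30.4, 33.8 and 33.2 CPM (log2 ratio -1.65, interval -2.16 to -1.15). For S1pr5, Cd300ld, Cd300ld3 and Hes1, the WT library had the lowest level of the 4, by little for Hes1.

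Among the 10 largest ratios in each direction in the gate, several were held by few cells or belonged to other cell types. Hbb-bs, Hba-a1 and Hba-a2 were higher in WT, with log2 ratios of 8.61, 7.70 and 7.22, each against 1 UMI in young WT and with 1 cell holding 99.8%, 99.6% and 99.7% of the WT UMIs. Slpi, a protease inhibitor, stood at 12.8, 176, 151 and 134 CPM (log2 ratio 3.75, interval 3.26 to 4.35), Ccr7 at 7.45, 64.3, 4.63 and 4.34 CPM and Clec4e at 52.1, 283, 254 and 246 CPM (log2 ratio 2.43, interval 2.17 to 2.72). Factor X, F10, stood at 31.4, 201, 211 and 223 CPM (log2 ratio 2.67, interval 2.34 to 3.04). In restricted cells Slpi stood at 24.5, 249, 121 and 102 CPM, Clec4e at 149, 412, 291 and 287 CPM and F10 at 89.98, 321, 257 and 258 CPM, again lowest in young WT, while Ccr7 was at 0, 0.908, 0.137 and 0 CPM. Lower in WT were the NK-cell granzyme Gzma (81.9, 4.99, 12.8 and 59.2 CPM), the histone gene Hist1h2ap (96.8, 17.6, 19.4 and 22.2 CPM in the gate and 19.1, 6.36, 7.80 and 12.1 CPM in restricted cells), and Ctla2b, Clnk, Rtl8b, Gpr141b, Tlr3, Rtl8c, Gcsam and Ttc39a, at log2 ratios from -2.56 to -1.79. Tlr3, Clnk and Gcsam were low in restricted cells of every library, at 0, 1.36, 0.684 and 0.717 CPM, 1.36, 0.454, 0.410 and 0.448 CPM and 2.73, 0, 0 and 0 CPM. Beside these, 5 of 9 counted cell-cycle genes were past 2-fold lower in the gate, while in restricted cells 1 was counted and was not past it.

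Innate sensing and complement genes were described from fixed lists too. Of 9 complement genes, 5 were counted in the gate and 3 were past 2-fold higher in WT, while in restricted cells it was 1 of 6, the C5a receptor gene C5ar1, at 65.4, 143, 151 and 154 CPM (log2 ratio 1.12, interval 0.69 to 1.60). Factor B, Cfb, was past 2-fold in the gate and in core cells but not in restricted cells, at 20.3, 75.6, 94.0 and 77.03 CPM, 10.7, 127, 102 and 69.1 CPM and 57.3, 111, 113 and 96.0 CPM. Cd14, the lipopolysaccharide co-receptor, stood at 131, 282, 148 and 202 CPM (log2 ratio 1.10, interval 0.79 to 1.43). The oxysterol receptor gene Nr1h3 (LXR alpha) stood at 53.2, 192, 96.4 and 113 CPM (log2 ratio 1.83, interval 1.37 to 2.36), the one gene past 2-fold higher of 12 counted sterol and lipid handling genes, of which 1 was past 2-fold lower (median -0.05). WT cells had the highest level of Cd14 and Nr1h3 among the 4 libraries.

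Of 12 classical monocyte genes, 10 were counted in restricted cells and 3 were past 2-fold higher in WT (median 0.48). Thbs1, Hp and Chil3 were the genes past 2-fold. Haptoglobin, Hp, stood at 296, 859, 1411 and 1191 CPM (log2 ratio 1.53, interval 1.33 to 1.75), and Chil3, a chitinase-like lectin of marrow-derived monocytes, at 269, 549, 495 and 411 CPM (log2 ratio 1.03, interval 0.81 to 1.26). The transcripts of classical monocytes were thus unequal between the libraries even in restricted cells, as was the share of cells with Ly6c2 and Ccr2 UMIs given above. Core cells leave out the cells that met both limits on Ly6c2 and Ccr2, and there the list median was 1.81.

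The second comparison, of miR-146a-/- with WT cells under DEN-CDHFD, asks what the loss of the microRNA goes with. In the gate, 84 of 3454 counted genes (2.43%) were past 2-fold higher and 113 (3.27%) past 2-fold lower. In restricted cells, 71 of 3445 counted genes (2.06%) were past 2-fold higher and 141 (4.09%) past 2-fold lower, and 75 of these 141 lower genes and 51 of the 71 higher ones were among those of the gate. In core cells, 92 of 3497 counted genes (2.63%) were past 2-fold higher and 184 (5.26%) past 2-fold lower. miR-146a-/- cells held fewer transcripts of MHC class II, interferon-stimulated, immediate-early, chemokine and lipid-associated genes, and more of Pecam1 and Spn.

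Of 12 MHC class II genes, 9 were counted in restricted cells and 5 were past 2-fold lower, with a median log2 ratio of -1.06 beside 0.03 over all counted genes. In the gate it was 4 of 12 (median -0.89) and in core cells 7 of 9 (median -1.55). The class II chain gene H2-Aa stood at 2658, 2772, 996 and 1446 CPM (log2 ratio -1.48, interval -1.53 to -1.43). H2-Ab1 stood at 1565, 1875, 669 and 873 CPM (log2 ratio -1.49, interval -1.55 to -1.43). Cd74, the invariant chain, stood at 8896, 8744, 3928 and 5407 CPM (log2 ratio -1.15, interval -1.18 to -1.13). In these sums both libraries with WT alleles were high and both knockout libraries low. Class I genes differed less: 1 of 12 counted was past 2-fold lower, H2-Q7 at 146, 166, 77.4 and 72.2 CPM (log2 ratio -1.10, interval -1.29 to -0.91), and the median was -0.59.

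Cd74 was uneven from cell to cell. The median restricted cell held 1190.5, 4043, 345 and 680.0 CPM of Cd74, and 1 cell in 10 held at least 29766, 22638, 7362 and 12969 CPM. Cells with very high Cd74 thus remained in the restricted set of every library. By the median cell, young WT lay nearer to DKO than to WT, whereas by the sum it lay nearer to WT. After thinning to 2000 UMIs, 75.3%, 86.2%, 52.4% and 64.8% of restricted cells had a Cd74 UMI and 39.0%, 53.7%, 20.7% and 27.8% an H2-Aa UMI, against 90.9%, 97.4%, 74.9% and 82.1% and 49.4%, 67.5%, 31.4% and 40.1% unthinned. Shallower cells left out by thinning numbered 0, 3, 16 and 15. T cells (5 or more Cd3 UMIs, none of Csf1r, Cd79a or Cd79b), which should make little class II, give the background from free RNA. Of thinned T cells, 15.4%, 22.3%, 13.6% and 16.9% had a Cd74 UMI and 5.83%, 10.1%, 3.63% and 4.99% an H2-Aa UMI, at a median depth before thinning of 7336, 7537.5, 7039.5 and 6554.5 UMIs beside 7703, 11157, 8631 and 8575 in restricted cells. The shares in restricted cells were above this background in all 4 libraries, and the background itself was highest in the WT library. For comparison, 42.9%, 22.3%, 44.8% and 41.7% of thinned restricted cells had an Spn UMI, beside 2.70%, 2.01%, 6.03% and 3.56% of B cells. The median depth of these B cells, unthinned, was 5701, 6963, 7183 and 6880 UMIs. The Spn shares were above this background in all 4 libraries.

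**Figure D3:**
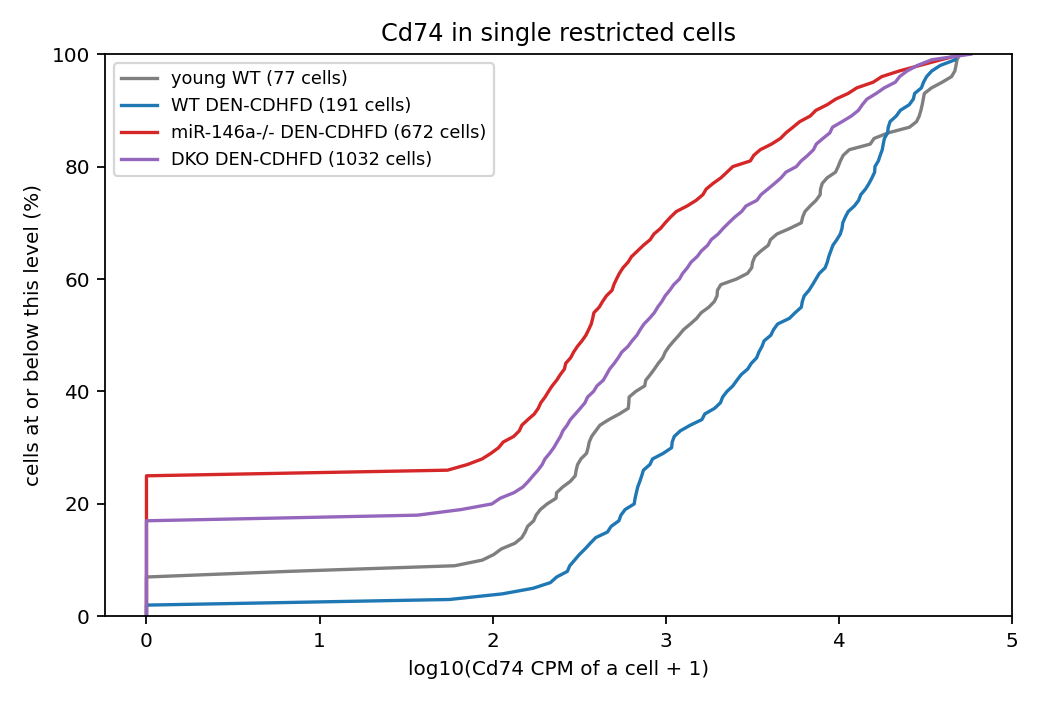
Cumulative share of restricted cells (vertical axis, %) at or below a Cd74 level (horizontal axis, log10 of CPM + 1), 1 line per library. The miR-146a-/- line lies highest over most of the range and the WT line lowest, with medians of 345 and 4043 CPM.

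Interferon-stimulated genes were lower in miR-146a-/- cells, 10 of 20 counted past 2-fold in restricted cells (median -1.02), 5 of 16 in the gate (median -0.76) and 12 of 17 in core cells. The third comparison counted 11 of the list in restricted cells. At most 11 of the 20 thus reached the floor in miR-146a-/- cells. The others reached it through the WT library alone and are lower in miR-146a-/- cells by this choice, so the count of 10 is not read by itself. Over all 29 genes of the list, counted or not, the sum was 4907 CPM in WT and 2172 CPM in miR-146a-/- restricted cells. Cxcl10 stood at 161, 267, 55.8 and 42.6 CPM (log2 ratio -2.26, interval -2.44 to -2.07) and Ifit2, an RNA-binding antiviral gene, at 19.1, 54.0, 11.9 and 5.83 CPM (log2 ratio -2.18, interval -2.60 to -1.77). Isg15 had a log2 ratio of -2.21 at the levels given for the first comparison.

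Immediate-early and heat-shock genes, which respond within minutes to handling of cells as well as to signals in tissue, were lower too. Of 23 such genes, 20 were counted in restricted cells and 11 were past 2-fold lower (median -1.06), and in the gate 11 of 21 (median -1.13). Fosb stood at 81.8, 106, 19.8 and 26.9 CPM (log2 ratio -2.41, interval -2.72 to -2.11) and Fos at 2538.5, 2207, 739.9 and 965 CPM (log2 ratio -1.58, interval -1.63 to -1.52). The heat-shock gene Hspa1a stood at 927, 537, 143 and 154 CPM (log2 ratio -1.91, interval -2.03 to -1.79), and Atf3 at 956, 913, 249 and 301 CPM (log2 ratio -1.88, interval -1.97 to -1.78). Nr4a1, which drives the formation of these monocytes and is itself an immediate-early gene, stood at 1393, 942, 987 and 923 CPM and did not move with them (log2 ratio 0.07, interval -0.00 to 0.14). Over all kept cells Fos stood at 1116, 1105, 368 and 537 CPM. Its level over all cells was thus also lower in both knockout libraries, and the part of this in the result within patrolling monocytes was not tested.

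Of the chemokine and cytokine list, 15 of 24 genes were counted in restricted cells and 11 were past 2-fold lower (median -1.88), and 9 of 14 in the gate (median -1.37). The third comparison counted 10 of the list, so at most 10 of the 15 reached the floor in miR-146a-/- cells. The others reached it through the WT library alone and are lower in miR-146a-/- cells by this choice. Over all 24 genes the sum was 4062 CPM in WT and 1912 CPM in miR-146a-/- restricted cells. In restricted cells the C1q sum went from 49.0 to 11.1 CPM and the share with Ly6c2 and Ccr2 UMIs from 39.3% to 19.6%. The part of both in this result was not tested. Ccl4 had a log2 ratio of -3.26 and Cxcl2 of -2.37. Oncostatin M, Osm, stood at 19.1, 59.9, 7.80 and 9.05 CPM (log2 ratio -2.93, interval -3.42 to -2.48). Il1b stood at 678, 696, 242 and 247 CPM (log2 ratio -1.53, interval -1.63 to -1.43) and Tnf at 34.1, 63.6, 25.2 and 22.0 CPM (log2 ratio -1.34, interval -1.66 to -1.01). The NF-kB list as a whole had 6 of 23 genes past 2-fold lower (median -0.56). These 6 were Tnfaip3, Tnf, Il1b, Cxcl2, Ccl3 and Ccl4, and no NF-kB subunit gene was past 2-fold.

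Ccl5 itself had a log2 ratio of -0.59 in restricted cells, at 109, 219.7, 146 and 20.3 CPM. One miR-146a-/- cell held 63.2% of those UMIs. Core cells do not hold that cell, and there Ccl5 stood at 102, 278, 34.4 and 13.5 CPM (log2 ratio -3.01). Ccr1 and Ccr3, which bind Ccl5, were low in restricted cells: Ccr1 at 4.09, 11.8, 3.83 and 7.89 CPM and Ccr3 at 1, 0, 0 and 3 UMIs. Neither reached the floor of 50 CPM there.

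Lipid-associated macrophage genes, higher in WT than in young WT, were lower in miR-146a-/- than in WT restricted cells: 7 of 14 were past 2-fold lower (median -0.89), and 4 of 13 in the gate (median -0.37). Both comparisons rest on the same WT library, and the C1q sum given above was lower in miR-146a-/- cells too. Spp1 had a log2 ratio of -3.44, Cd63 of -3.34 and Lpl of -1.80. These genes reached the floor through the WT library alone here, so their direction was fixed by this choice. Over all 14 members the list summed to 7289 CPM in WT and 4828 CPM in miR-146a-/- restricted cells.

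Single genes past 2-fold lower are given next, taken from the largest ratios and, for Cd86 and Havcr2, from the list of regulatory genes described below. Cd83, an activation marker, stood at 455, 246, 27.8 and 51.3 CPM (log2 ratio -3.15, interval -3.39 to -2.91), and Cd86, a costimulatory ligand, at 110.4, 206, 62.9 and 61.0 CPM (log2 ratio -1.71, interval -1.90 to -1.52). The receptor Havcr2 (TIM-3) stood at 164, 98.5, 33.8 and 43.9 CPM (log2 ratio -1.54, interval -1.81 to -1.27). Rgs1, a brake on chemokine receptor signalling, stood at 145, 300.0, 37.3 and 67.1 CPM (log2 ratio -3.00, interval -3.21 to -2.80). Slamf7 stood at 69.5, 116, 17.8 and 33.8 CPM (log2 ratio -2.70, interval -3.02 to -2.39). The efferocytosis receptor Axl stood at 55.9, 107, 16.3 and 23.03 CPM (log2 ratio -2.71, interval -3.04 to -2.39). The matrix protein gene Thbs1 stood at 21.8, 72.6, 6.43 and 17.6 CPM (log2 ratio -3.49, interval -4.00 to -3.02). It was the only gene past 2-fold lower of 11 counted classical monocyte genes (median -0.09), while in core cells it was 3 of 10 (median -0.48). In the gate, Nr4a3 and Tent5c were also among the 10 lowest, at 24.8, 54.1, 4.72 and 8.74 CPM and 30.6, 58.3, 8.60 and 12.6 CPM (6.82, 9.53, 2.05 and 3.32 CPM and 20.4, 44.0, 2.74 and 4.93 CPM in restricted cells), with Ccr7 (log2 ratio -3.79) and the 3 globin genes that 1 WT cell carried.

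Receptors for chemoattractants and ligands that restrain T cells were mixed. Of 15 chemoattractant receptor genes, 7 were counted in restricted cells and 2 were past 2-fold lower. Gpr183, a receptor for oxysterols, stood at 32.7, 59.0, 17.1 and 29.0 CPM (log2 ratio -1.79, interval -2.15 to -1.42), and Ccrl2, which holds chemerin on the cell surface, at 129.5, 257, 103 and 119.5 CPM (log2 ratio -1.32, interval -1.48 to -1.16). Cx3cr1, the receptor of crawling patrolling cells, went the other way without passing 2-fold, at 285, 182, 269.9 and 269 CPM (log2 ratio 0.57, interval 0.42 to 0.73). Of 18 regulatory genes, 10 were counted, with Cd86, Havcr2 and the inhibitory receptor Lilrb4a past 2-fold lower and Trem1 past 2-fold higher (median -0.37). Trem1, an amplifier of myeloid activation, stood at 42.3, 22.7, 59.1 and 47.1 CPM (log2 ratio 1.37, interval 0.96 to 1.83). Cd274 (PD-L1) stood at 218, 235, 156 and 160.1 CPM (log2 ratio -0.60, interval -0.75 to -0.44), within 2-fold.

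Fewer genes were higher. Of the 22 identity genes, 2 were past 2-fold higher in restricted cells and 1 lower (median 0.25). In the gate 4 were higher and 1 lower (median 0.46). Spn was higher (log2 ratio 1.28, interval 1.10 to 1.46), as was Pglyrp1 (log2 ratio 1.06, interval 0.96 to 1.17), at the levels given above. Both miR-146a-/- levels lay near or above the young WT ones. The scavenger receptor Cd36 was lower, at 166, 153, 66.6 and 78.7 CPM (log2 ratio -1.20, interval -1.40 to -0.99). Ear2 was not past 2-fold, at 589, 434, 379.6 and 417 CPM (log2 ratio -0.19, interval -0.30 to -0.09).

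Of 15 adhesion and patrolling genes, 14 were counted and 2 were past 2-fold higher, Pecam1 and Spn (median 0.55). Pecam1 (CD31), which joins leukocytes and endothelium, stood at 24.1 (18.02 to 31.5) CPM in WT and 183 (174 to 194) CPM in miR-146a-/- cells (log2 ratio 2.92, interval 2.53 to 3.36), with Poisson intervals of the levels. In young WT it stood at 42.3 (28.7 to 60.0) CPM and in DKO cells at 153 (145 to 159.9) CPM. The integrin gene Itgb3 stood at 20.4, 7.72, 54.9 and 37.7 CPM (log2 ratio 2.79, interval 2.13 to 3.62) and the transcription factor Ets1 at 35.4, 12.7, 87.3 and 74.1 CPM (log2 ratio 2.76, interval 2.23 to 3.38). For Pecam1, Itgb3 and Ets1, both knockout libraries stood above both libraries with WT alleles. The Ets1 ratio depended on the limit on Cd3 UMIs: without this limit it was -0.15 in the gate.

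The acute-phase genes Lrg1 and Saa3 were also higher in miR-146a-/- restricted cells. Lrg1 stood at 1.36, 0.454, 84.5 and 47.6 CPM, with 1 UMI in WT (log2 ratio 6.96, interval 5.06 to 12.85), and Saa3 at 40.9, 52.2, 559 and 654 CPM (log2 ratio 3.42, interval 3.15 to 3.70). They lay in 131 and 141 of 672 cells. Serpinb6a, Mdm1, the formyl peptide receptor Fpr1 and Pi16 followed with log2 ratios of 2.36, 2.35, 2.26 and 2.14. Cd300ld was past 2-fold higher as well (log2 ratio 1.17, interval 0.99 to 1.36). Among 6 Fc gamma receptors, Fcgr4, the activating receptor typical of these monocytes, stood at 129.5, 94.0, 159.9 and 218 CPM (log2 ratio 0.76, interval 0.55 to 0.99), and no receptor was past 2-fold higher. Fcgr1, the high-affinity receptor, was past 2-fold lower, at 49.1, 87.2, 41.5 and 33.8 CPM (log2 ratio -1.07, interval -1.34 to -0.80). The median of the 6 receptors was -0.24, and in core cells 3 of 6 were past 2-fold lower (median -0.58).

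In the gate the genes with the largest higher ratios were mostly neutrophil granule genes. Camp stood at 0, 0, 832 and 565 CPM and was at least 1056.5-fold higher than in WT, which had no UMI. Ltf, at 0, 0, 294 and 235 CPM, was at least 374-fold higher. Ngp, at 0, 0.263, 987 and 679 CPM, had 1 UMI in WT (log2 ratio 11.29, interval 9.40 to 17.18). S100a8 and S100a9 stood at 68.7, 57.0, 2964 and 2243 CPM and 57.1, 90.9, 3636 and 2595 CPM, Lcn2 at 2.07, 5.25, 455 and 359 CPM and Wfdc21 at 2.90, 1.58, 155 and 106 CPM. The Camp UMIs lay in 30 of 838 gated cells. In restricted cells the 8 genes of the neutrophil list summed to 4.09, 7.72, 43.0 and 33.3 CPM and none was counted. Jchain was carried to 97.2% by 1 miR-146a-/- cell, and immunoglobulin segment genes were left out of the named genes.

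**Figure D4:**
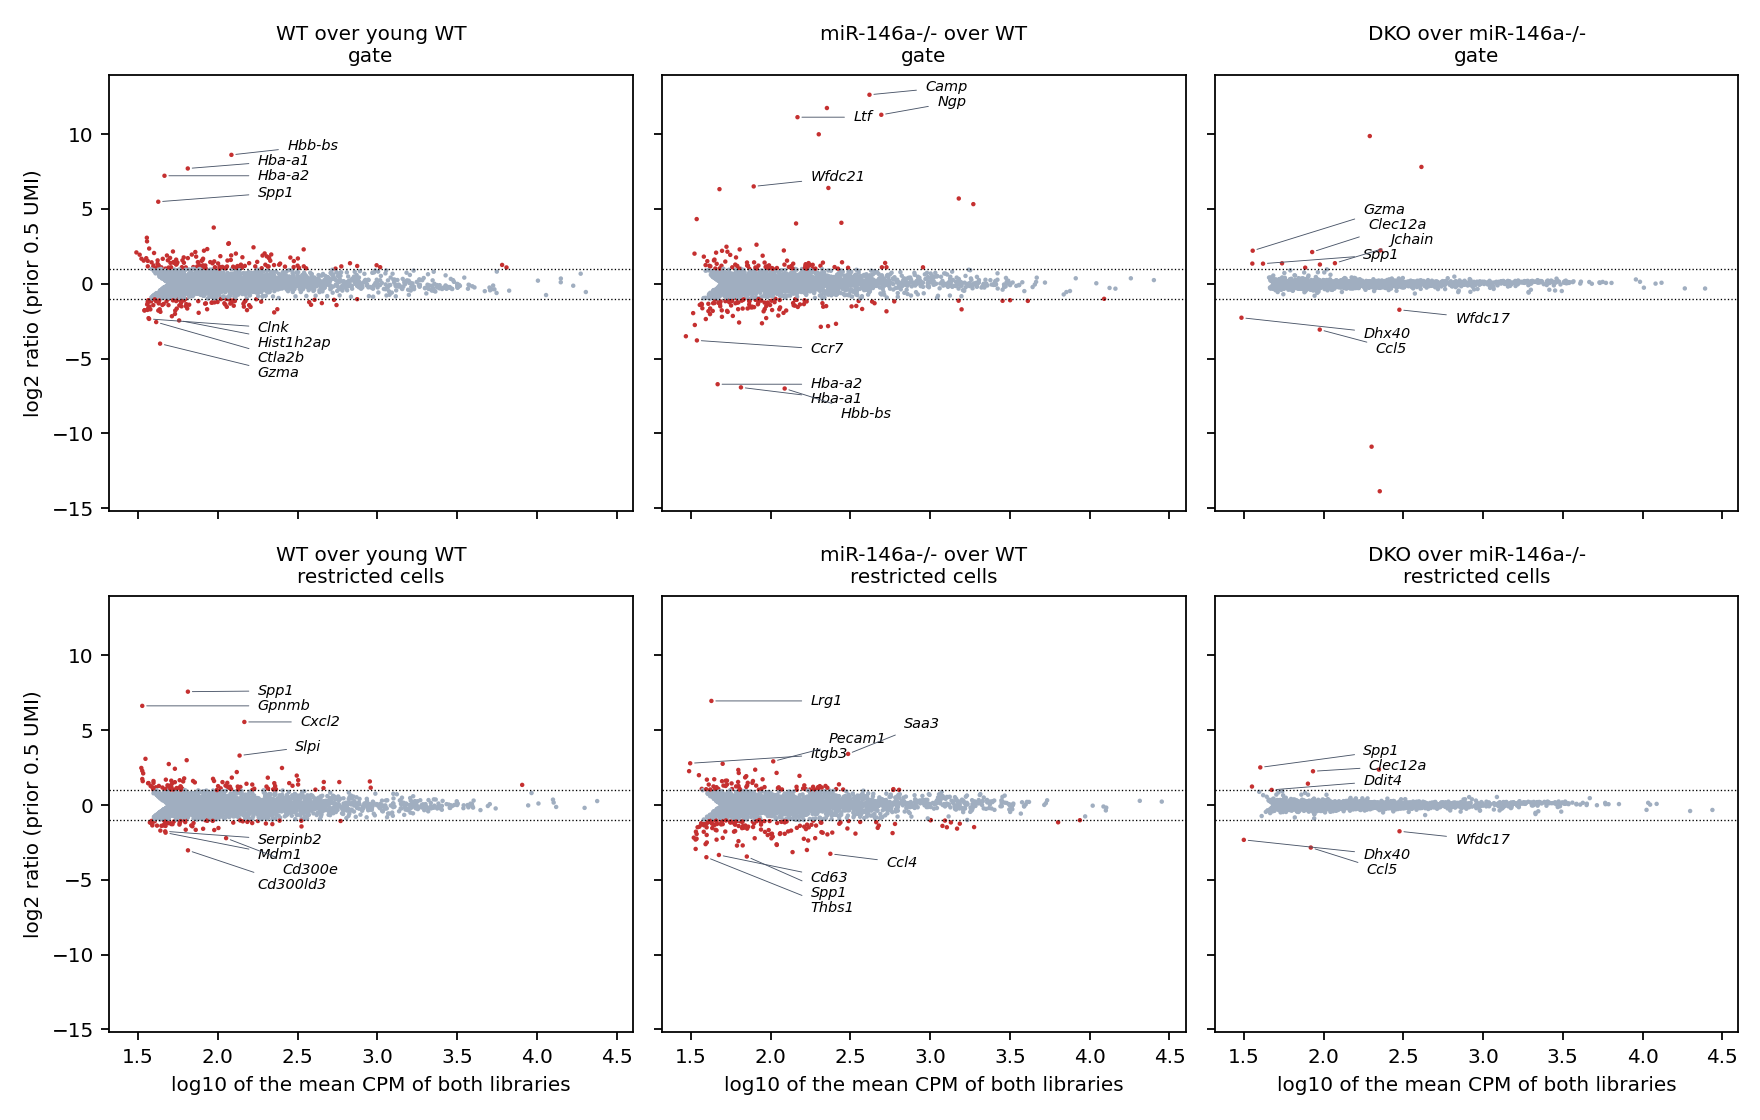
Log2 ratio of each counted gene (vertical axis) against the log10 of its mean CPM in both libraries (horizontal axis), for the 3 comparisons, in the gate (upper panels) and in restricted cells (lower panels). Red points are past 2-fold, with up to 4 genes of each direction labelled (Cd300e, which the gate used, among them) and immunoglobulin segment genes (the extreme points of the third comparison) left unlabelled, and extreme points of the gate, such as Ngp at 11.29 and Hba-a2 at -6.71 in the second comparison, are not among the counted genes of restricted cells.

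The third comparison, of DKO with miR-146a-/- cells, asks what the added loss of Ccl5 goes with. In the gate, 11 of 3236 counted genes (0.34%) were past 2-fold higher and 5 (0.155%) past 2-fold lower. In restricted cells, 6 of 3246 counted genes (0.185%) were past 2-fold higher and 3 (0.0924%) past 2-fold lower, of which 5 higher and 3 lower genes were among those of the gate. In core cells 5 were higher and 3 lower of 3255, of which 4 higher and 2 lower genes were among those of the gate. Ccl5 and Spp1 did not reach the floor for counting in core cells. The patrolling monocytes of both knockout libraries were thus close in expression, and their share of kept cells differed by less than in the second comparison.

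The 3 lower genes in restricted cells were Ccl5, Dhx40 and Wfdc17. Ccl5 went from 146 (137 to 155) to 20.3 (17.8 to 23.2) CPM (log2 ratio -2.84, interval -3.06 to -2.64), with the single-cell source of the first value given above. Wfdc17 stood at 239.9, 455, 462 and 137 CPM (log2 ratio -1.75, interval -1.84 to -1.67) and the helicase gene Dhx40 at 76.3, 65.4, 52.8 and 10.5 CPM (log2 ratio -2.33, interval -2.64 to -2.03). Both lie on chromosome 11, within 10 Mb of Ccl5 (a window chosen after seeing the data), and were the only ones past 2-fold of 45 counted genes there. Trim25 (113, 139, 114 and 61.2 CPM), Ccl3 (83.2, 194, 51.2 and 30.7 CPM) and Ccl6 (821, 606, 533 and 334 CPM) were the next lower ones there, without passing 2-fold.

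The higher genes were led by Spp1 and Clec12a. Clec12a, an inhibitory lectin receptor for uric acid crystals, stood at 202, 189, 29.7 and 142 CPM (log2 ratio 2.26, interval 2.05 to 2.47), so that the miR-146a-/- library alone was low and the DKO level was nearer to both WT ones. Its UMIs were spread widely, over 564 of 1032 DKO and 144 of 672 miR-146a-/- restricted cells. Its ratio of miR-146a-/- to WT was among the 10 lowest of the second comparison (log2 ratio -2.67, interval -2.91 to -2.43). Spp1 (log2 ratio 2.51, interval 2.20 to 2.86) lay in 29 DKO cells, 1 of them holding 36.2%. The stress gene Ddit4 stood at 43.6, 25.9, 31.3 and 63.3 CPM (log2 ratio 1.01, interval 0.80 to 1.24). The remaining 3 of the 6 were gene models without a symbol of their own, led by Gm42031 at 117, 119.8, 72.1 and 373 CPM.

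No gene of the MHC class II list was past 2-fold in this comparison. Cd74 had a log2 ratio of 0.46 and H2-Aa of 0.54 in restricted cells, with a list median of 0.33 beside -0.01 over all counted genes, and 0.41 in core cells. Fc gamma receptors had a median of 0.36, with Fcgr4 at a log2 ratio of 0.44. Interferon-stimulated genes had a median of -0.19, immediate-early genes of 0.05, with Fos at 0.38, and the identity list of -0.01. None of these genes was past 2-fold. In the gate Gzma and Jchain were past 2-fold higher, at 81.9, 4.99, 12.8 and 59.2 CPM and 0.414, 3.15, 65.6 and 170.2 CPM. In DKO, 1 cell held 96.4% of the Jchain UMIs, and the NK-cell list summed to 94.4 CPM in the gate and 7.44 CPM in restricted cells.

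**Figure D5:**
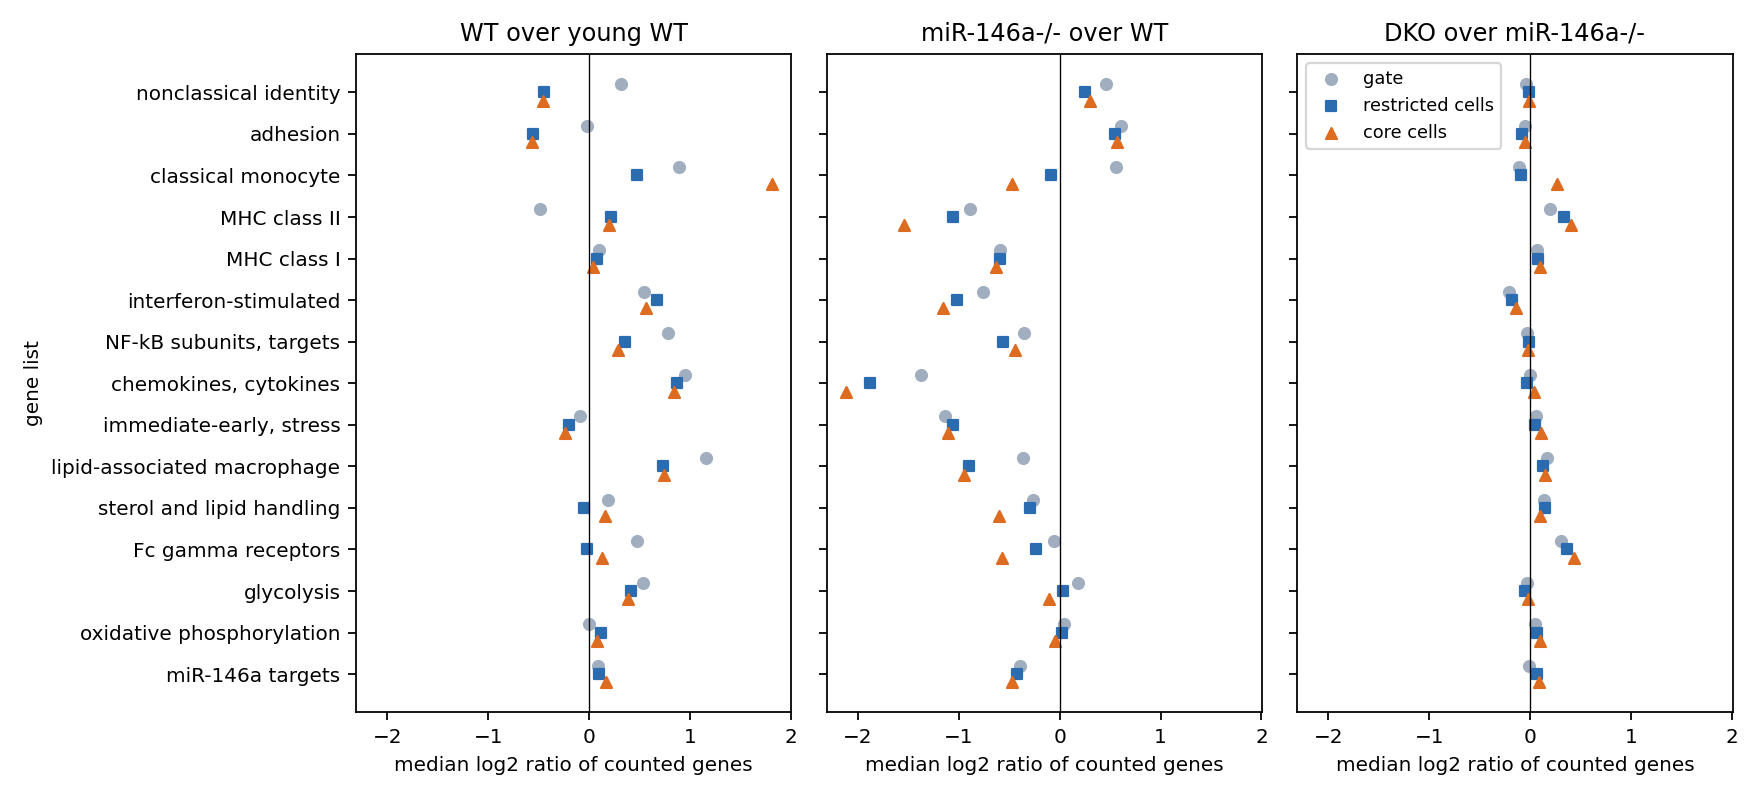
Median log2 ratio of the counted genes of 15 lists (1 per line; horizontal axis) in the 3 comparisons, for gated, restricted and core cells. In the second comparison the chemokine list reached -1.37, -1.88 and -2.11, while every list median of the third comparison in restricted cells lay between -0.19 and 0.36.

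Of 9 known targets of miR-146a, some with the sites printed above, 6 were counted in restricted cells and none was past 2-fold there in miR-146a-/- against WT cells, with a median of -0.42. In core cells 1 of 7 was past 2-fold lower (median -0.48). Irak1 stood at 55.9, 53.1, 54.0 and 54.5 CPM (log2 ratio 0.02, interval -0.28 to 0.34). Traf6 stood at 43.6, 47.2, 35.8 and 35.2 CPM, under the floor in all 4 libraries. Irak2 stood at 134, 163, 81.8 and 93.0 CPM (log2 ratio -0.99, interval -1.18 to -0.80), just short of 2-fold lower. Protein was not measured.

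Other lists are given by their medians and by the genes past 2-fold. Oxidative phosphorylation genes (79, 79 and 76 of 94 counted) had medians of 0.12, 0.03 and 0.07 in restricted cells in the order of the comparisons, with 1 gene past 2-fold, in the second. Glycolysis genes (among them Eno3, which the gate used) had medians of 0.41, 0.04 and -0.05, none past 2-fold. Regulators of survival and fate had medians of -0.21, -0.04 and -0.01, with 2 of 18 past 2-fold lower in the first, Hes1 among them, beside 55 of 3497 counted genes. Toll-like receptor and nucleic acid sensing genes had medians of -0.02, -0.08 and -0.01, with 2 of 9 past 2-fold higher in the first, beside 89 of 3497 counted genes.

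Measures of RNA quality are given for restricted cells. Mitochondrial UMIs made up 0.737%, 0.975%, 1.08% and 0.960% and ribosomal protein UMIs 13.8%, 12.2%, 14.0% and 15.4%. Cmss1, Cdk8, Lars2 and Gphn, summed as a further sign of RNA quality, made up 3.72%, 3.43%, 3.94% and 2.997%, lowest in the DKO library. Gphn was among the 10 lowest genes of the third comparison, at 1245, 1553, 2572 and 1694 CPM. Restricted cells rest on 733505, 2202977, 7309590 and 11158643 UMIs, so the young WT values are the least precise.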

How the data were processed

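Single-cell libraries (10x Genomics 5′, 1 per group, CD45+ liver cells) were read as the UMI count matrices deposited by the authors, which per the file headers came from Cell Ranger 7.0.1 on the mm10 build, with 32285 genes. From these counts, cells with 600 to 6000 genes and at most 5% mitochondrial UMIs were kept, and the gate was applied to raw UMIs. No doublet caller was run. UMIs were summed per library and scaled to CPM. Log2 ratios used a prior of 0.5 UMI, over genes reaching 50 CPM and 20 UMIs in either library of a comparison. Shares have Clopper-Pearson and their differences Newcombe intervals. Levels have exact Poisson intervals, and ratios exact conditional ones. With 1 library per group no test was possible.

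Named were genes of the gate, marker genes, Ccl5, Ccr1, Ccr3, 2 to 4 members per described gene list (highest CPM or largest ratio), and the 10 largest ratios each way per comparison. Mitochondrial, ribosomal protein, antigen receptor and immunoglobulin segment genes and predicted gene models were left out of the latter, and Nr4a1, Ear2, Irak1, Irak2, Cx3cr1, Cd274 and Gm42031 were chosen after their values were seen. Some genes that the plan names are not reported here. Members of the cell set and 36 gene lists were chosen with earlier results of these data known.

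Alternatives were TMM scaling (edgeR 4.0.16 in R 4.3.3), the mean of single-cell CPM, a prior of 5, a floor of 10 CPM, other gate limits, another denominator and thinning to 2000 UMIs. Restricted and core cells, and their limits on the classical gate, were added after seeing the data. Interval and ratio code was tested on simulated data. Python 3.11.15, numpy 2.4.6, scipy 1.17.1, pandas 2.3.3 and matplotlib 3.10.9 were used.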

Additional observations from a re-analysis of the deposited data

How the results depend on the processing

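Limits come first. Each group is 1 library, so intervals cover counting error only, and the spread between mice is unknown. The young WT values rest on the fewest cells. No paired analysis was possible because each group has 1 library and no test was made. Of the recomputed values that answer a comparison, 59 stayed within their interval or within 1.5 times the count, 33 moved and 2 reversed; where a cause is not evident from the setting, the cause was not tested.

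For WT minus young WT, the difference in share was 0.829 points for core cells, 3.82 without the Cd3 limit, 0.760 after thinning and -7.52 among Csf1r cells without Cd3. For miR-146a-/- minus WT these were 5.51, 9.15, 4.99 and 24.9 points, with 8.41 without the limit on Negr1, Sox5, Itgad and Fcrl5 and 6.30 for restricted cells. For DKO minus miR-146a-/- the difference was 1.20 without the Cd3 limit, 5.57 without the Negr1 one and -10.2 among Csf1r cells without Cd3. The ratio to classical monocytes after thinning was 3.05 in young WT and 3.83 in WT, and 3.59 in WT with 1 UMI of Ly6c2. For restricted cells it was 3.21, 3.67, 7.38 and 10.9 in the order of the libraries, and with the same limits on both gates 15.6 in miR-146a-/- and 19.5 in DKO.

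A floor of 10 CPM gave 270 higher and 353 lower genes in the first comparison, 213 and 362 in the second, and 26 and 10 in the third. In the first, 84 genes were higher without the Cd3 limit and 55 lower in restricted cells. In the second, 184 were lower in core cells. In the third, 6 were higher and 3 lower in restricted cells, and 5 and 3 in core cells. TMM scaling gave 148 higher and 73 lower genes in the first comparison and 95 and 103 in the second.

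Of 100 named ratios past 2-fold in the gate, the direction was the same for 100 under TMM scaling, the single-cell mean, a prior of 5 and a marker sum of 3, for 96 without the Cd3 limit, for 96 in restricted and for 93 in core cells. Past 2-fold in that direction remained 99, 97, 99 and 98 under the first 4, and 88, 87 and 87 under the last 3. For WT over young WT, the reversed log2 ratios were, in restricted and core cells, -0.85 and -1.27 for Hba-a1, -1.59 and -2.86 for Hba-a2 and 1.22 and 0.31 for Tlr3, in core cells 0.31 for Ctla2b, and without the Cd3 limit -0.10 for Ccr7 and 1.18 for Gzma. For miR-146a-/- over WT they were -0.38 and -0.76 for Jchain in restricted and core cells, -0.45 for Ltf in core cells and -0.15 for Ets1 without the Cd3 limit. For DKO over miR-146a-/-, Gzma was at -0.59 without the Cd3 limit and -0.29 in core cells.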
